A study of Mus musculus with 58 samples.

Results

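Acod1, Gpr84, Nampt, Nadk, Lpcat2 and Slc39a4 were followed through 34 libraries of mouse microglia. These 6 genes, of 47643 in the count tables, were chosen by their log2 fold change in IkbkbCA against IkbkbWT microglia, where their expression was much higher, and because they act in itaconate and NAD metabolism, in lipid sensing and remodelling and in zinc uptake. Their values in that comparison are therefore given as a description and were not tested. Tests of the 6 genes come from the other 3 comparisons, which share no libraries with it. Differences between effects came from a fit of all 34 libraries, so the IkbkbCA and IkbkbWT libraries entered its estimate of the spread. Other genes were tested in all 4 comparisons. All 6 genes passed the filter on low counts in each of the 4 comparisons.

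The series asks how NF-κB signalling in microglia bears on tau pathology. IKKβ, the product of Ikbkb, is the kinase that marks IκB proteins for destruction and so frees NF-κB to enter the nucleus. Vehicle and tau were primary microglia from wild-type mice, given vehicle or fibrils of full-length tau at 2 µg/ml, with RNA taken after 24 h (4 libraries each). NTG and PS19 were CD11b-bead isolates from the brains of male mice, in PS19 with the human tau transgene P301S+ and in NTG without it (4 mice each). All 4 PS19 mice were 10.98 months old, as were 2 NTG mice, and 2 NTG mice were 11.18 months old. Ikbkb+/+ and Ikbkb-/- were primary microglia that all carried floxed Ikbkb (Ikbkb F/F), and IkbkbWT and IkbkbCA were primary microglia that all carried a floxed-stop transgene for constitutively active IKKβ in the Rosa26 locus (IkbkbCA F/F), with 4 and 5 libraries a group. Only the Ikbkb-/- and IkbkbCA cultures carried the Cre recombinase, as Cx3cr1 CreERT2/+, and the methods state that cultures without Cre received 4-hydroxytamoxifen as well. The Cre sits in Cx3cr1, a gene of microglia and other macrophages, so those groups also have 1 Cx3cr1 allele fewer. The primary cultures came from newborn pups. The labels do not say which libraries came from separate cultures, so that p-values measure the spread between these libraries, which may be partly technical.

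Activated macrophages and microglia rewire their central metabolism along with their inflammatory genes. Acod1 is the mitochondrial enzyme that turns the TCA cycle intermediate cis-aconitate into itaconate, a metabolite that restrains succinate dehydrogenase and activates the stress regulator NRF2. Nampt is the rate-limiting enzyme of NAD salvage from nicotinamide, and Nadk is the cytosolic kinase that converts NAD to NADP. Gpr84 is a Gi-coupled receptor of myeloid cells that responds to medium-chain fatty acids, Lpcat2 an acyltransferase that makes platelet-activating factor (PAF) and remodels phosphatidylcholine, and Slc39a4 (ZIP4) a zinc importer of the plasma membrane.

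In GENCODE M21 on GRCm38, Acod1 (ENSMUSG00000022126) lies on the plus strand at chr14:103046977-103056573 with 5 exons. Gpr84 (ENSMUSG00000063234) lies on the minus strand at chr15:103308235-103310612 with 2 exons. Nampt (ENSMUSG00000020572) has 11 exons at chr12:32819545-32853349 on the plus strand, and Nadk (ENSMUSG00000029063) has 12 exons at chr4:155562378-155591001 on the plus strand. Lpcat2 (ENSMUSG00000033192) has 14 exons at chr8:92855339-92919279 on the plus strand, and Slc39a4 (ENSMUSG00000063354) has 12 exons at chr15:76612383-76617384 on the minus strand. Exons of the antisense genes Gm49482 and Gm45472 overlap exons of Gpr84 and Lpcat2, and the strand setting of the counting is not given in the sources used here, so reads of the partners cannot be told apart.

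The promoters of 4 of the genes are shown to cover different responses: Acod1 and Gpr84 had the largest increases with tau fibrils, Nampt rose with tau fibrils and in Ikbkb-/- microglia, and Lpcat2 was the gene with its highest levels in adult microglia. Each sequence is from RefSeq (GRCm38.p6), runs from 250 bases before to 50 bases after an annotated start on the gene's own strand, and has in capitals the matches to GGNNNTTCC, a short form of the κB motif, and to AANNGAAA, the core of motifs bound by interferon regulatory factors. Both strands were searched, and matches of the different motifs did not overlap each other.

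Acod1: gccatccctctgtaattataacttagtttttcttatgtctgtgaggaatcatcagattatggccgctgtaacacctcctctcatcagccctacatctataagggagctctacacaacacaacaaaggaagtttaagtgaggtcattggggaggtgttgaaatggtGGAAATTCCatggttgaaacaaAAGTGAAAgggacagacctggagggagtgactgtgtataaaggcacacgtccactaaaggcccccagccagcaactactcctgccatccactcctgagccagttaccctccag

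Gpr84: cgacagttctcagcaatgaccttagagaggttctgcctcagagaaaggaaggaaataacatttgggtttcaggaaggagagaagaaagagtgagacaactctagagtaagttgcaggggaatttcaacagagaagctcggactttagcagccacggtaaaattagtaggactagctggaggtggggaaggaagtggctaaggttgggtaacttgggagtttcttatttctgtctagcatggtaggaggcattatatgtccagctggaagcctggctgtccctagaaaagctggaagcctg

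Nampt: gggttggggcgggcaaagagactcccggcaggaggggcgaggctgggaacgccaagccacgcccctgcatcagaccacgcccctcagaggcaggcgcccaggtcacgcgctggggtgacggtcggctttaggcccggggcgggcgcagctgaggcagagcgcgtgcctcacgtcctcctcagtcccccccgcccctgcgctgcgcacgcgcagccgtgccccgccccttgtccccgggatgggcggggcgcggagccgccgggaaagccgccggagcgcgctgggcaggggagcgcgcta

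Lpcat2: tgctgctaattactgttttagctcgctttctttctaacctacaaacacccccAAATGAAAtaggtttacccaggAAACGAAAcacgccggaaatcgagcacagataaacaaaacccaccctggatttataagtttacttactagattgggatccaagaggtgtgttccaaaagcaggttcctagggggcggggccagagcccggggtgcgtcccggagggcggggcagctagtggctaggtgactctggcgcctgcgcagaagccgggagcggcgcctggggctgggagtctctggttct

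These windows are chr14:103046762-103047061 for Acod1, chr15:103310389-103310688 on the minus strand for Gpr84, chr12:32820085-32820384 for Nampt and chr8:92855083-92855382 for Lpcat2. Acod1 had GGNNNTTCC at bases -85 to -77 from the start, where the pattern matched on both strands, and AANNGAAA at -63 to -56. Of 32851 mouse promoters of this length, 18.5% held GGNNNTTCC and 23.9% held AANNGAAA. Lpcat2 had AANNGAAA at -198 to -191 and at -176 to -169, and Gpr84 and Nampt had neither motif. RefSeq promoters were matched for 5 of the 6 genes. The exception was Slc39a4, which like Nampt was called higher with tau fibrils and in Ikbkb-/- microglia. Of 2 windows for Nadk, not printed, 1 held AANNGAAA. The full κB consensus, found in 8.46% of promoters, matched in none of the windows of the 5 genes. Nampt had a G and C content of 76.3% and a ratio of observed to expected CpG of 0.83, against 47.0% and 0.12 for Acod1 and 47.0% and 0.20 for Gpr84, where the median ratio of all promoters was 0.38.

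Reads were counted from the 3′ ends of transcripts (QuantSeq), so a count does not grow with gene length, and counts are of reads, not molecules. Total counts were 1672052 to 8349128 per library. Expression is given as CPM, counts scaled to library size, with TMM normalization over all 34 libraries, and a log2 fold change is from edgeR's quasi-likelihood fit of the 2 groups compared. A gene was called changed at a Benjamini-Hochberg FDR under 0.05 over all genes tested. All 12 microglia markers were above 0 in every group. Ikbkb itself was lower in Ikbkb-/- microglia (22.6 ± 2.81 CPM, SD, n = 4) than in Ikbkb+/+ microglia (52.0 ± 4.35), in 4 of 4 libraries, with a log2 fold change of -1.21 and an edgeR FDR of 6.34e-07. In IkbkbCA microglia it was 52.8 ± 6.63 CPM against 46.7 ± 7.06 in IkbkbWT microglia (edgeR FDR = 0.405), and since 3′ reads of the endogenous gene need not include the transgene, this checks nothing. Cx3cr1 was lower in both groups that carry Cre in it, with 1055 against 2372 CPM in Ikbkb-/- and Ikbkb+/+ microglia and 1198 against 1759 CPM in IkbkbCA and IkbkbWT microglia.

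Some libraries stood apart. Replicate 3 of IkbkbWT and of IkbkbCA had the most oligodendrocyte marker reads, with sums over 8 markers of 5210 and 1955 CPM. Granulocyte markers summed over 12 genes to 1637 to 2225 CPM in NTG and 476 to 2716 CPM in PS19 isolates, to 18.2 to 437 CPM in Ikbkb+/+ and to less than 100 CPM in every other library. The Ikbkb-/- cultures had 5.65 to 10.4 CPM of Xist, the RNA of the inactive X chromosome, and 155.2 to 173 CPM of the Y-linked Ddx3y, against 243 to 400.5 and 35.1 to 69.4 CPM in Ikbkb+/+, so that the sex of the pups and the deletion cannot be told apart. IkbkbWT replicates 1 to 3 had 1.70 to 2.82 CPM of Xist, against 265 to 279 CPM in IkbkbCA replicates 1 to 3. IkbkbWT replicates 4 and 5 had 1.15 and 2.04 CPM of Ddx3y, against 85.9 and 68.3 CPM in IkbkbCA replicates 4 and 5. IkbkbWT replicates 1 to 3 had 143 to 177 CPM of Ddx3y, and replicates 4 and 5 had 469 and 485 CPM of Xist. Every IkbkbCA library had both RNAs, with 150 to 279 CPM of Xist and 49.3 to 85.9 CPM of Ddx3y. Within replicates 1 to 3, and within replicates 4 and 5, the sex of the pups and the genotype cannot be told apart. The difference in sex was opposite between these sets, and the part of sex in the values was not tested. PS19 replicate 1, labelled male, had 177 CPM of Xist.

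All 6 genes rose with tau fibrils, by 2.15-fold to 12.1-fold. Acod1, the itaconate enzyme, was at 4.35, 4.33, 3.49 and 4.06 CPM in the vehicle libraries and at 46.4, 43.3, 61.8 and 41.0 CPM in the tau libraries. The groups were far apart, and the log2 fold change was 3.59 (SE 0.24, edgeR FDR = 2.67e-12). Gpr84, the fatty acid receptor, was at 16.3, 12.99, 11.8 and 17.8 CPM with vehicle and at 80.7, 91.9, 121.5 and 99.8 CPM with tau fibrils. Again every tau library lay above every vehicle library, with a log2 fold change of 2.82 (SE 0.19, edgeR FDR = 1.81e-12). Slc39a4, the zinc importer, went from 3.804, 4.13, 3.49 and 2.03 CPM to 18.5, 17.3, 16.1 and 20.3 CPM. Its groups were also separate, with a log2 fold change of 2.40 (SE 0.31, edgeR FDR = 9.74e-07).

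Lpcat2, which makes PAF, was at 22.8, 28.7, 28.3 and 33.5 CPM with vehicle and at 106, 84.1, 122 and 148 CPM with tau fibrils. The lowest tau library was thus well above the highest vehicle library, and the log2 fold change was 2.06 (SE 0.18, edgeR FDR = 3.7e-10). For the NAD genes the groups lay closer together. Nadk was at 56.5, 31.5, 49.7 and 50.8 CPM with vehicle and at 122, 110.4, 121.5 and 159 CPM with tau fibrils, with a log2 fold change of 1.51 (SE 0.17, edgeR FDR = 1.11e-07). Nampt was at 97.8, 83.1, 54.0 and 66.0 CPM with vehicle and at 145, 162, 150 and 171 CPM with tau fibrils, with a log2 fold change of 1.11 (SE 0.15, edgeR FDR = 2.46e-06). The vehicle libraries of both genes spread widely, yet none reached a tau library.

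All 6 of 6 genes were called higher and in all 6 the groups did not overlap, where 14.5% of the 10408 genes tested were called higher and 12.6% did not overlap in that direction. The exact permutation p was 0.0286 (two-sided) for each gene, the smallest that 4 against 4 libraries allow. The median log2 fold change was 2.23 for the 6 genes and -0.01 for all genes tested.

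**Figure D1:**
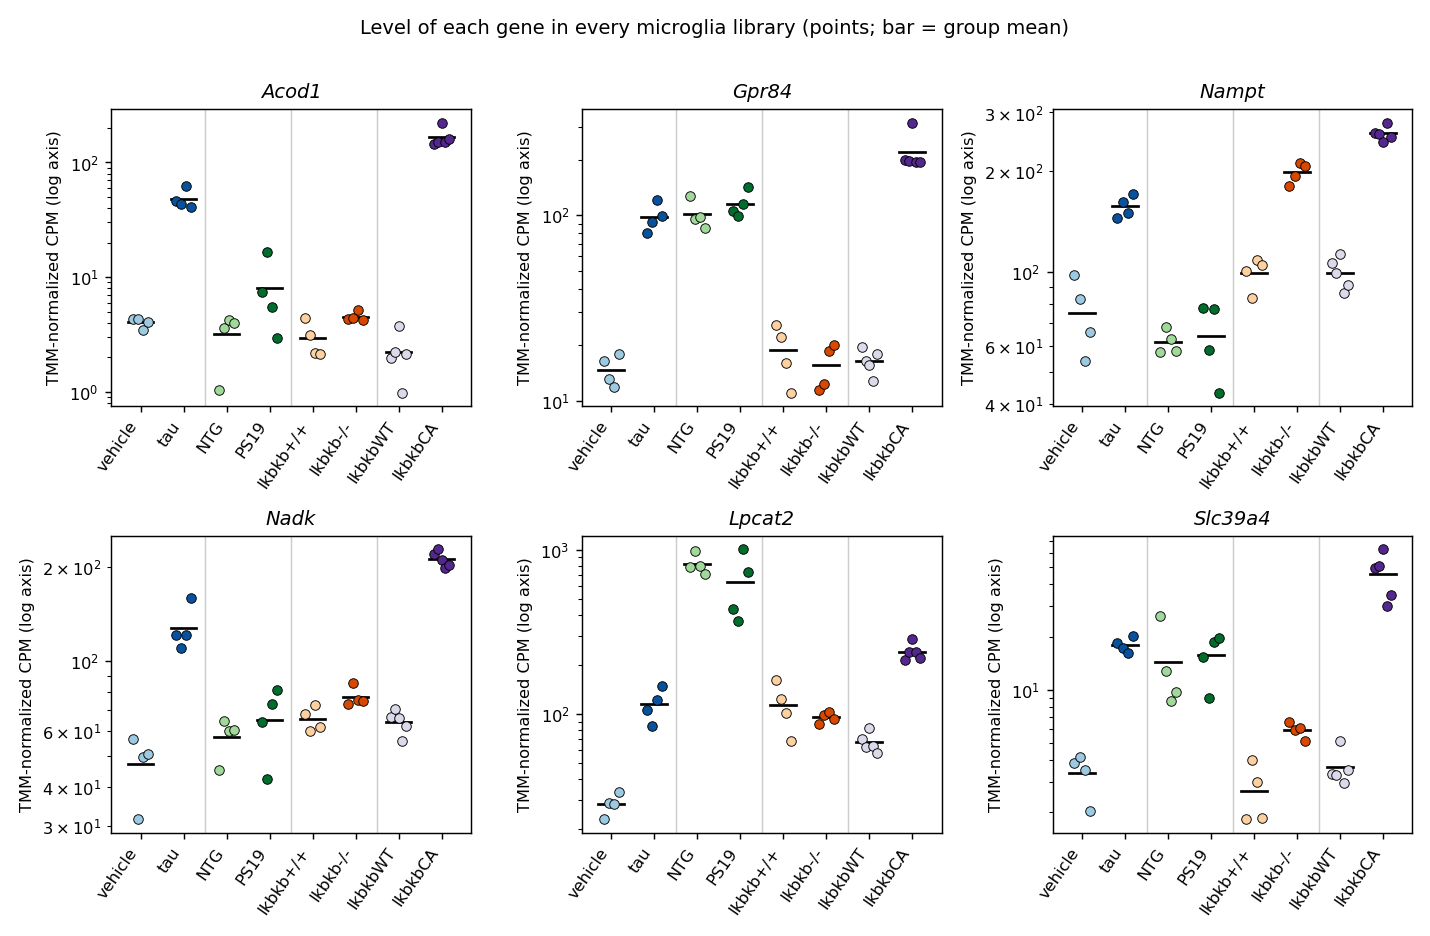
TMM-normalized CPM (log axis) of the 6 genes in each of the 34 libraries by group, with bars at the group means. The tau libraries lie above the vehicle libraries for all 6 genes, the PS19 and NTG libraries overlap for all 6, and Lpcat2 is highest in the NTG and PS19 isolates.

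Marker reads of several cell types moved with the treatment. The 12 microglia markers summed to 5742 to 7567 CPM in the vehicle libraries and to 13240 to 15500 CPM in the tau libraries, and Cx3cr1 alone rose from 1475 to 3030 CPM (edgeR FDR = 4.8e-07). Markers of neurons summed over 6 genes to 337 to 436 CPM with vehicle and 168 to 224 CPM with tau fibrils, those of astrocytes over 8 genes to 751 to 821 and 388 to 455 CPM, and those of oligodendrocytes over 8 genes to 526 to 647 and 320 to 376 CPM. In bulk RNA, fewer cells of a type and less RNA per cell cannot be told apart. The microglia markers may themselves respond to treatment or genotype. They include Cx3cr1, lower in both groups with Cre, and C1qa and C1qc, which the paper describes as raised by NF-κB in microglia. A level relative to these markers is therefore not a level per cell, here and in the comparisons below. Relative to the summed microglia markers, a scale chosen after these values were seen, Acod1 was still 5.43-fold higher with tau fibrils, Gpr84 3.07-fold, Slc39a4 2.47-fold and Lpcat2 1.91-fold, and the groups of all 4 genes remained apart. Nadk was 1.24-fold higher, with 7.25 to 12.0 CPM per 1000 CPM of markers against 4.16 to 9.84, and Nampt was at 0.957 of the vehicle mean, with 9.68 to 12.9 against 8.84 to 17.04, so that the groups of both NAD genes overlapped on this scale.

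**Figure D2:**
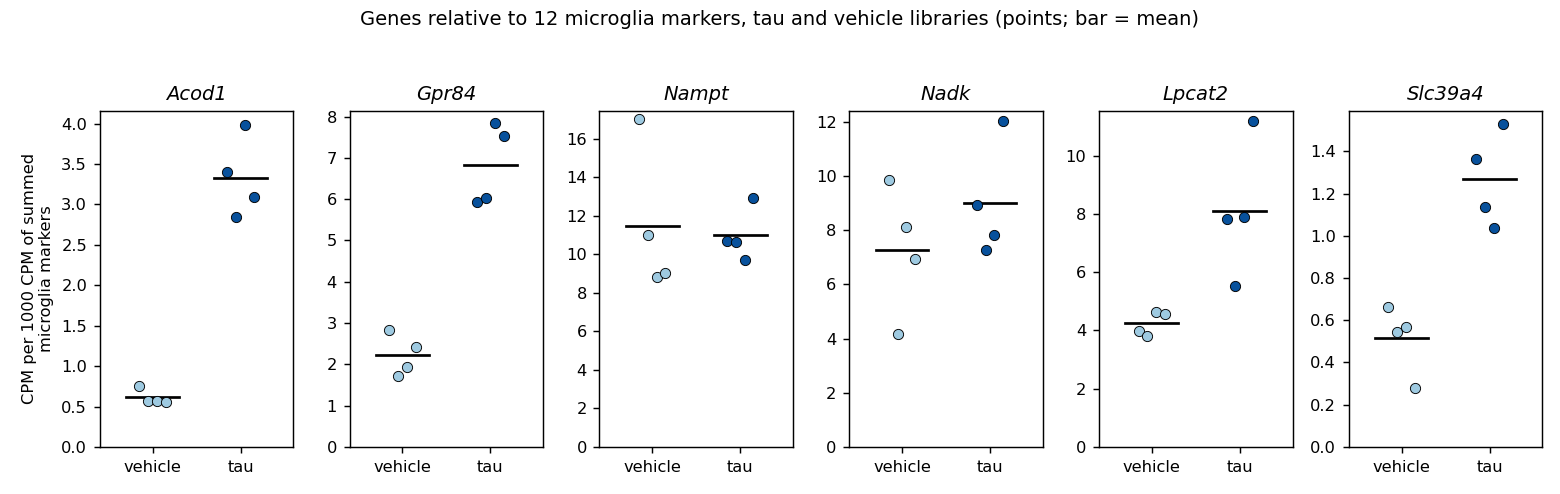
CPM of each gene per 1000 CPM of 12 summed microglia markers in the 4 vehicle and 4 tau libraries, each panel on its own linear axis from 0, with bars at the means. Acod1, Gpr84, Lpcat2 and Slc39a4 are separate between the groups, and Nampt and Nadk overlap.

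By edgeR, 0 of the 6 genes were called in microglia of PS19 mice against NTG mice, where 0.0707% of 11323 genes tested were called. At an unadjusted p under 0.05 edgeR and limma-voom found 0 of the 6 and DESeq2 found 1, with 0 of 6 called by limma-voom. DESeq2 gave no adjusted value for Acod1 and called none of the other 5. For none of the 6 did the groups lie apart, where 4.54% of all genes had every PS19 library above and 1.66% every PS19 library below the NTG libraries. Acod1 came nearest, with 1.04, 3.58, 4.21 and 3.995 CPM in NTG and 7.43, 16.7, 5.46 and 2.95 CPM in PS19. PS19 libraries 1 to 3 were above all NTG libraries and the 4th among them, with a log2 fold change of 1.21 and a 95% interval from -0.02 to 2.44 (edgeR FDR = 0.587). Without the highest library, PS19 replicate 2, which also had the largest share of reads outside genes in the series, the Acod1 log2 fold change was 0.63. Gpr84 was at 85.0 to 127.9 CPM in NTG and 99.4 to 142 CPM in PS19, with a log2 fold change of 0.12 and an interval from -0.30 to 0.54. The intervals were -0.46 to 0.45 for Nampt, -0.37 to 0.59 for Nadk and -0.73 to 0.91 for Slc39a4.

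Lpcat2 had its highest levels of the 8 groups in the adult isolates. It was at 790.5, 985, 799 and 712 CPM in NTG and at 438, 367, 1007 and 734 CPM in PS19. The PS19 libraries ran from below all to above all NTG libraries, and the log2 fold change was -0.43 (interval -1.06 to 0.19, edgeR FDR = 0.701). The same PS19 libraries had granulocyte marker sums of 476, 1773, 2716 and 1027 CPM, and a part of granulocytes in the Lpcat2 values was not tested. Gpr84 was at levels in NTG microglia (101.7 ± 18.4 CPM, SD, n = 4) that overlapped those of tau-stimulated cultures (98.5 ± 17.2), while Acod1 was at 3.21 ± 1.47 CPM in NTG. These sets were prepared differently, by isolation from adult brain or by culture, so that age, preparation and state cannot be told apart.

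Nampt and Slc39a4 were higher, not lower, in Ikbkb-/- than in Ikbkb+/+ microglia, groups that also differ in the sex of the pups and in a Cx3cr1 allele. Nampt was at 100.5, 83.2, 108.6 and 104.7 CPM in Ikbkb+/+ microglia and at 180.1, 193, 212 and 208 CPM in Ikbkb-/- microglia. Each Ikbkb-/- library was far above each control, with a log2 fold change of 1.01 (SE 0.09, edgeR FDR = 2.11e-07). Slc39a4 was at 1.83, 3.97, 3.003 and 1.86 CPM in Ikbkb+/+ and at 6.55, 5.86, 6.07 and 5.13 CPM in Ikbkb-/- microglia. These groups were separate at low counts, with a log2 fold change of 1.12 (SE 0.29, edgeR FDR = 0.0125), and the call was lost with the 18 libraries of both Ikbkb experiments fitted with Ddx3y as a covariate (FDR = 0.0586) and with all 34 libraries in the fit (FDR = 0.0616). With the Ddx3y covariate the log2 fold change of Nampt was 0.94 (edgeR FDR = 1.3e-06). Ddx3y did not overlap between Ikbkb-/- and Ikbkb+/+ microglia, so this fit cannot separate the sex of the pups from the deletion. Relative to the summed microglia markers, Nampt was 1.86-fold and Slc39a4 2.09-fold higher in Ikbkb-/- microglia, and the groups stayed apart. Markers of border-associated macrophages, another Cx3cr1-expressing cell type of the brain, summed over 6 genes to 1510 to 1849 CPM in Ikbkb+/+ and 422 to 741 CPM in Ikbkb-/- cultures, and their part in these results was not tested. In IkbkbWT microglia, Nampt was at 106, 98.8 and 113 CPM in the 3 libraries with 143 to 177 CPM of Ddx3y and at 86.5 and 91.3 CPM in the 2 libraries with 1.15 and 2.04 CPM. These are replicates 1 to 3 and replicates 4 and 5, which also fell into different sets of libraries (below). Sex and set cannot be told apart there.

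The other 4 genes were not called, so that 2 of 6 genes were called higher, against 7.64% of the 11242 genes tested, and DESeq2 and limma-voom also called 2 higher. None of the 6 was called lower by edgeR, DESeq2 or limma-voom, nor had any an unadjusted p under 0.05 in that direction, against 6.96% of genes called lower. Acod1 was at 4.38, 3.14, 2.17 and 2.12 CPM in Ikbkb+/+ and at 4.37, 4.40, 5.14 and 4.21 CPM in Ikbkb-/- microglia, with a log2 fold change of 0.73 (interval 0.12 to 1.35, edgeR FDR = 0.11). Nadk was at 60.0 to 72.7 CPM in Ikbkb+/+ and at 73.1 to 85.2 CPM in Ikbkb-/-, groups that just missed each other, with a log2 fold change of 0.25 (edgeR FDR = 0.0836). With Nampt and Slc39a4 that made 3 of 6 genes with separate groups in the higher direction, where 8.66% of all genes tested were so. Gpr84 was at 11.0 to 25.6 CPM in Ikbkb+/+ and 11.5 to 20.0 CPM in Ikbkb-/- microglia, with an interval of the log2 fold change from -0.64 to 0.35. Lpcat2 was at 161, 123, 101.9 and 68.5 CPM in Ikbkb+/+ replicates 1 to 4 and at 86.8 to 103 CPM in Ikbkb-/- microglia, with a log2 fold change of -0.21 (edgeR FDR = 0.487). In the same Ikbkb+/+ libraries the granulocyte markers summed to 437, 110, 52.4 and 18.2 CPM, and their part in the Lpcat2 and Gpr84 values was not tested. Without replicate 4 of Ikbkb+/+ the Lpcat2 log2 fold change was -0.41 (FDR = 0.0345), and without replicates 1 and 2 it was 0.19 (FDR = 0.446).

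**Figure D3:**
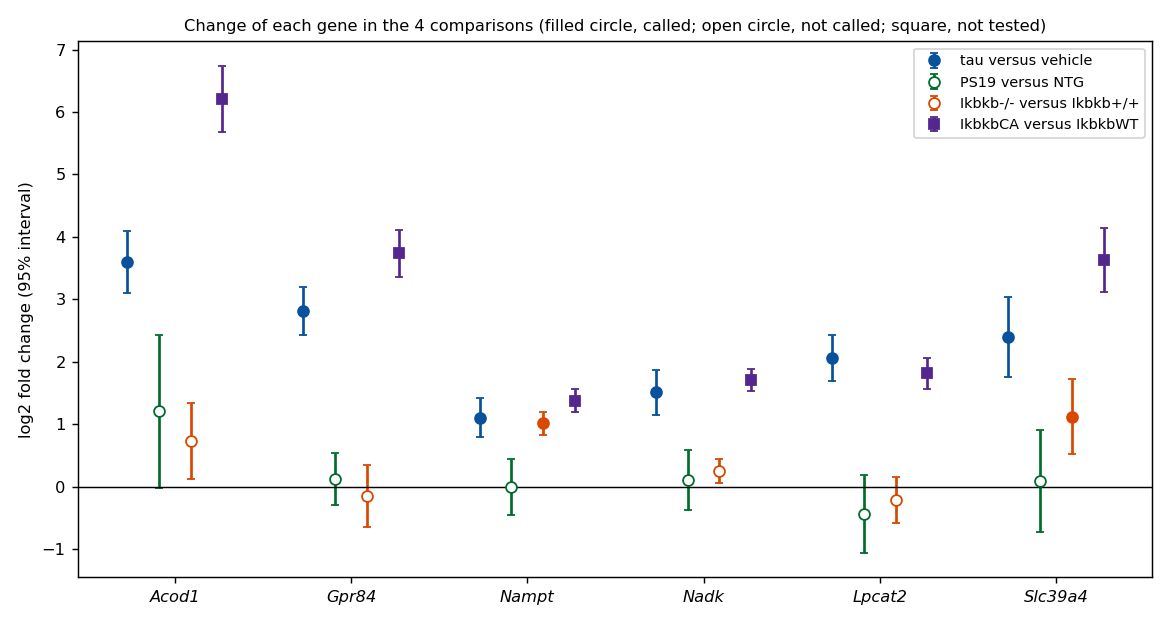
Log2 fold changes with 95% intervals of the 6 genes in the 4 comparisons. Filled circles were called, open circles were not, and squares are the IkbkbCA values, which were not tested because they chose the genes. Tau is above 1 for every gene, PS19 intervals all include 0, and for Nampt the tau and Ikbkb-/- values (1.11 and 1.01) lie side by side, while relative to the microglia markers its ratios were 0.957 and 1.86.

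The effects themselves differed between comparisons. In a fit of all 34 libraries, the effect of tau fibrils exceeded that of the PS19 genotype for all 6 genes, where 6.92% of 13722 genes were called in that direction. The differences on the log2 scale were 2.67 for Gpr84 (SE 0.31, edgeR FDR = 7.47e-08), 2.48 for Acod1 (SE 0.56, FDR = 0.00245) and 2.48 for Lpcat2 (SE 0.33, FDR = 1.63e-06). For Slc39a4 the difference was 2.28 (FDR = 0.000553), for Nadk 1.38 (FDR = 7.3e-05) and for Nampt 1.10 (FDR = 0.000473). Relative to the summed microglia markers, which were higher with tau fibrils, the order turned for Nampt, at 0.957 of the vehicle mean with tau fibrils and 1.11 of the NTG mean in PS19. Nadk came close on that scale, with ratios of 1.24 and 1.16, and the groups overlapped for both genes in both comparisons. Differences on that scale were not tested.

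Against the change in Ikbkb-/- microglia, the effect of tau fibrils was larger for 4 of 6 genes, where 5.79% of all genes were called in that direction. The differences were 3.01 for Gpr84 (edgeR FDR = 4.7e-08), 2.89 for Acod1 (FDR = 0.000426), 2.31 for Lpcat2 (FDR = 1.01e-05) and 1.28 for Nadk (FDR = 0.000257). For Slc39a4 the difference was 1.31 (interval 0.31 to 2.32, FDR = 0.102). Nampt, the gene of NAD salvage, had a difference of 0.12 with an interval from -0.31 to 0.54 (FDR = 0.803). Relative to the microglia markers its values were further apart, at 0.957 of the control mean with tau fibrils, where the groups overlapped, and 1.86 in Ikbkb-/- microglia, where they did not. Between the changes in PS19 and in Ikbkb-/- microglia, Nampt was the 1 gene of 6 that was called (-0.98, SE 0.21, edgeR FDR = 0.0042), where 1.25% of genes were called in that direction. The tau and PS19 cultures and isolates, and the Ikbkb-/- and Ikbkb+/+ cultures, share no libraries.

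In the comparison on which the genes were picked, IkbkbCA against IkbkbWT, all 6 lay above every control library, where 7.31% of 11697 genes were called higher and 6.51% did not overlap in that direction. Acod1 was at 1.99, 2.24, 3.78, 0.985 and 2.15 CPM in IkbkbWT and at 146, 149.5, 222.5, 150.1 and 160.4 CPM in IkbkbCA microglia, a log2 fold change of 6.21. That placed it 6th of 11697 genes, between Cxcl13 (6.58) and H2-Q6 (5.56). Gpr84 went from 12.8 to 19.4 CPM over the 5 IkbkbWT libraries to 199, 197, 317, 194.7 and 194.3 CPM in IkbkbCA (log2 fold change 3.74). In both genes IkbkbCA replicate 3 was the highest and the other 4 libraries lay close together. Slc39a4 went from 3.32, 3.27, 5.10, 2.95 and 3.51 CPM to 49.4, 50.7, 63.2, 30.1 and 34.7 CPM (3.64). Here IkbkbCA replicates 4 and 5 were the lowest of their group.

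The changes of the other 3 genes were smaller and their libraries closer together. Lpcat2 was at 70.1, 63.3, 82.2, 64.0 and 58.0 CPM in IkbkbWT and at 214, 238, 286, 239.6 and 220 CPM in IkbkbCA (1.82). Nadk was at 55.8 to 70.4 CPM in IkbkbWT and at 220.1, 227, 210.5, 197.7 and 202 CPM in IkbkbCA (1.71). Nampt was at 86.5 to 113 CPM in IkbkbWT and at 260.9, 258, 245.5, 279.7 and 254 CPM in IkbkbCA (1.38), and it stood 241st of 11697 genes, between Fbrsl1 and Chst7 (1.38 each). Microglia markers summed to 14880 to 21140 CPM in IkbkbWT and 18310 to 28340 CPM in IkbkbCA, and relative to them the IkbkbCA means were still 1.94-fold (Nampt) to 56.3-fold (Acod1) higher, with no overlap for any of the 6. The border-associated macrophage markers summed to 1393 to 1966 CPM in IkbkbWT and 489 to 1034 CPM in IkbkbCA, and their part in these values was not tested. With the 3 sets of libraries (replicates 1 and 2, replicate 3, and replicates 4 and 5 of both genotypes) as a covariate, the values were 6.21 for Acod1, 3.70 for Gpr84, 3.59 for Slc39a4, 1.82 for Lpcat2, 1.71 for Nadk and 1.38 for Nampt. Xist and Ddx3y differed between the genotypes within these sets, and the covariate does not address that.

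Set side by side, the order of the group means differed from gene to gene. Acod1, Nadk and Slc39a4 were highest in IkbkbCA and next in tau, although the Slc39a4 levels of tau, PS19 and NTG (18.1, 15.7 and 14.4 CPM) overlapped. Nampt was highest in IkbkbCA, then in Ikbkb-/- and then in tau, and no neighbours among these overlapped. Gpr84 was highest in IkbkbCA, followed by PS19, NTG and tau, which overlapped each other, and the 4 remaining groups lay together between 14.7 and 18.7 CPM. Lpcat2 was the exception at the top, with NTG and PS19 at 822 and 636.5 CPM and IkbkbCA after them. Of the 42 pairs of neighbouring groups over the 6 genes, 17 did not overlap. This count was not made for other genes, so it shows nothing particular to the 6. The Nampt levels of PS19, NTG and vehicle (64.3, 61.5 and 75.2 CPM) overlapped, as did the Acod1 levels of the 6 groups from PS19 down to IkbkbWT, neighbour by neighbour.

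The genes most alike to each of the 6 in pattern were sought by Pearson's r of log2 CPM over the 34 libraries, after the mean of each of the 4 sets of libraries was removed. These values are descriptions: the libraries fall into groups, 10 of them chose the genes, and r is also given over the other 24. Acod1 was most like Gpr84 (r = 0.93, and 0.79 over the 24), Cxcl16, a chemokine (0.93 and 0.89), and the complement gene C3 (0.92 and 0.91). Gpr84 was most like Cxcl16 (0.94 and 0.90), Ly6i and the matrix metalloproteinase Mmp14 (0.93 each, and 0.89 and 0.87). Cxcl16 also led the lists of Nadk (0.94 and 0.875) and Slc39a4 (0.92 and 0.83). Lpcat2 was most like the myeloid receptors Clec5a (0.92 and 0.865) and Fpr2 (0.91 and 0.86). The 3 nearest genes of Nampt were Ifit2, Usp18 and Samd9l (0.92, 0.92 and 0.91, and 0.91, 0.89 and 0.91 over the 24), which are known as interferon-induced genes. Among the 6 genes, r ran from 0.711 for Nampt with Lpcat2 to 0.931 for Acod1 with Gpr84 over the 34 libraries, and from 0.484 for Nampt with Lpcat2 to 0.87 for Gpr84 with Lpcat2 over the 24.

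Genes of the pathway lists were not set relative to the microglia markers, whose sums rose with tau fibrils as given above. The genes around Acod1 did not move with it as a group. Of 28 other genes of itaconate metabolism and the TCA cycle, 26 were tested with tau fibrils, 3 rose and 4 fell, where 14.5% and 15.4% of all genes did, with a median log2 fold change of -0.11 against -0.01 for all genes. Irf1, a transcription factor upstream of Acod1, rose with tau fibrils (1.73, edgeR FDR = 9.67e-09) and in IkbkbCA (0.76, FDR = 0.0111). Slc25a10, the mitochondrial dicarboxylate carrier, rose with tau fibrils (1.36, FDR = 2.5e-05), while the TCA cycle enzymes Idh3a (-0.56, FDR = 0.0128) and Suclg2 (-1.02, FDR = 0.0471) fell. Idh2, the mitochondrial NADP-dependent isocitrate dehydrogenase, and Idh1, its cytosolic counterpart, fell in IkbkbCA (-0.69 and -0.58, edgeR FDR = 0.00106 and 0.016) and in Ikbkb-/- microglia (-0.94 and -0.41, FDR = 2.17e-06 and 0.00361). In IkbkbCA 3 of 27 tested genes rose and 3 fell, where 7.31% and 7.16% of all genes did. In Ikbkb-/- microglia 5 of 27 fell, where 6.96% of all genes did, and 0 rose by edgeR and 1 by limma-voom, with 3 at an unadjusted p under 0.05 by edgeR. Of 12 genes of the NRF2 response, 4 of 11 tested rose with tau fibrils, against 14.5% of all genes, among them the cystine carrier Slc7a11 (1.17, edgeR FDR = 0.0303) and the peroxiredoxin Prdx1 (0.55, FDR = 0.0012). In IkbkbCA 1 of 11 tested rose by edgeR, against 7.31% of all genes, and DESeq2 called 4. The 1 gene was Nfe2l2, which encodes NRF2 (0.76, edgeR FDR = 0.000275). In Ikbkb-/- microglia 1 of 10 tested rose, Keap1 (0.39, FDR = 0.0137), and 4 fell, among them Txnrd1 (-0.57, FDR = 0.000876), where 7.64% and 6.96% of all genes did.

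Of 18 other NAD synthesis genes only 3 to 7 passed the filter. In each comparison 0 of them rose by edgeR, DESeq2 or limma-voom, and 0 had an unadjusted p under 0.05 in that direction. By edgeR, 14.5% of all genes rose with tau fibrils, 7.64% in Ikbkb-/- and 7.31% in IkbkbCA microglia. In PS19 microglia 0.0707% were called in either direction. With so few genes tested, 0 is close to these shares. Nmnat2, which makes NAD from the product of Nampt and is known from neurons, fell with tau fibrils (-1.02, edgeR FDR = 0.00277), beside the fall in neuron markers given above. In IkbkbCA the nicotinamide riboside kinase Nmrk1 (-0.81, FDR = 0.033) and the mitochondrial NAD carrier Slc25a51 (-0.38, FDR = 0.0324) fell. Of the genes of NAD use, 14 were tested with tau fibrils and 8 rose, where 14.5% of all genes did, with a median of 0.75. They included Parp14 (25.0 to 222 CPM in the means, 3.21, FDR = 3.13e-15), a mono-ADP-ribosyltransferase, and the NAD glycohydrolase Cd38 (2.83, FDR = 6.69e-05). In Ikbkb-/- microglia 6 of 16 rose, against 7.64% of all genes, led by Parp12 (1.70, FDR = 1.86e-08) and Parp10 (1.67, FDR = 5.5e-08), and Cd38 fell (-0.69, FDR = 0.0207). In IkbkbCA microglia 5 of 19 rose, against 7.31% of all genes, with Parp12 (1.71, FDR = 5.04e-05) and Bst1 (1.71, FDR = 0.0344) in front, and Cd38 (-1.29, FDR = 0.00013) and Sirt2 (-0.40, FDR = 0.0143) fell. Parp10, Parp12 and Parp14 were called higher with tau fibrils, in Ikbkb-/- and in IkbkbCA microglia alike, so these counts rest in part on the same genes. Around Nadk, of 10 genes of NADP and NADPH metabolism, Mthfd2 rose (0.77, FDR = 0.000844) and the malic enzyme Me1 fell (-0.78, FDR = 0.00243) with tau fibrils, Pgd of the pentose phosphate pathway rose in IkbkbCA (0.42, FDR = 0.0304), and Nnt, the transhydrogenase, fell in Ikbkb-/- microglia (-0.74, FDR = 0.00191).

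Of 20 other metabolite receptors and their signalling partners, 4 of 8 tested rose with tau fibrils, against 14.5% of all genes, among them Arrb2, an arrestin (1.79, edgeR FDR = 6.84e-11), and the proton-sensing receptor Gpr65 (1.62, FDR = 1.2e-10). In IkbkbCA microglia Hcar2, the receptor of hydroxybutyrate and niacin, rose (1.02, FDR = 0.00478), while Lpar6 (-1.13, FDR = 7.3e-05) and Gpr183, a receptor of oxysterols (-1.08, FDR = 0.00174), fell. The latter 2 genes fell in Ikbkb-/- microglia as well (-0.43 and -0.73, FDR = 0.0171 and 0.00307), in which Lpar1 (1.04, FDR = 0.0181) and Gpr35 (0.85, FDR = 0.00536) rose. Of 26 other genes of phospholipid remodelling and PAF, 5 of 20 tested rose with tau fibrils and 3 fell, where 14.5% and 15.4% of all genes did. Pla2g7, which degrades PAF, went from 18.6 to 85.2 CPM (2.26, FDR = 6.55e-10), and Ptafr, the PAF receptor, from 22.7 to 53.5 CPM (1.31, FDR = 1.3e-05). Ptafr also rose in IkbkbCA microglia (0.66, FDR = 0.00434), as did the phospholipase Pla2g4a (0.92, FDR = 0.000157), while Lpcat1, the paralog of Lpcat2, fell there (-0.47, FDR = 0.0392) and in Ikbkb-/- microglia (-0.38, FDR = 0.00942). The prostaglandin synthase Ptgs2 fell in Ikbkb-/- microglia from 5.71 to 0.940 CPM (-2.28, FDR = 0.00103).

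Of 26 other zinc genes, 0 rose in any comparison by edgeR, with 1 to 4 a comparison at an unadjusted p under 0.05 in that direction, and DESeq2 called 1 higher in PS19 and 1 in IkbkbCA microglia. By edgeR, 14.5% of all genes rose with tau fibrils, 7.64% in Ikbkb-/- and 7.31% in IkbkbCA microglia. In PS19 microglia 0.0707% were called in either direction. With tau fibrils 4 of 19 tested fell, against 15.4% of all genes, among them the metallothioneins Mt3 (-1.01, edgeR FDR = 0.00179) and Mt2 (-0.99, FDR = 3.01e-05). They fell beside the markers of astrocytes and neurons given above, and a part of those cells was not tested. In Ikbkb-/- microglia 4 of 19 fell, against 6.96% of all genes, among them Mt1 (-0.89, FDR = 5.25e-07) and the zinc importer Slc39a8 (-0.79, FDR = 0.00512). Slc39a8 was the 1 zinc gene that fell in IkbkbCA microglia (-1.47, FDR = 0.00013), where Slc39a4, of the same transporter family, was 12.4-fold higher. In PS19 against NTG microglia, edgeR called 0 of 121 tested genes of the 8 lists, 8 were higher and 5 lower at an unadjusted p under 0.05, and DESeq2 called 1 higher and 1 lower and limma-voom 0.

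**Figure D4:**
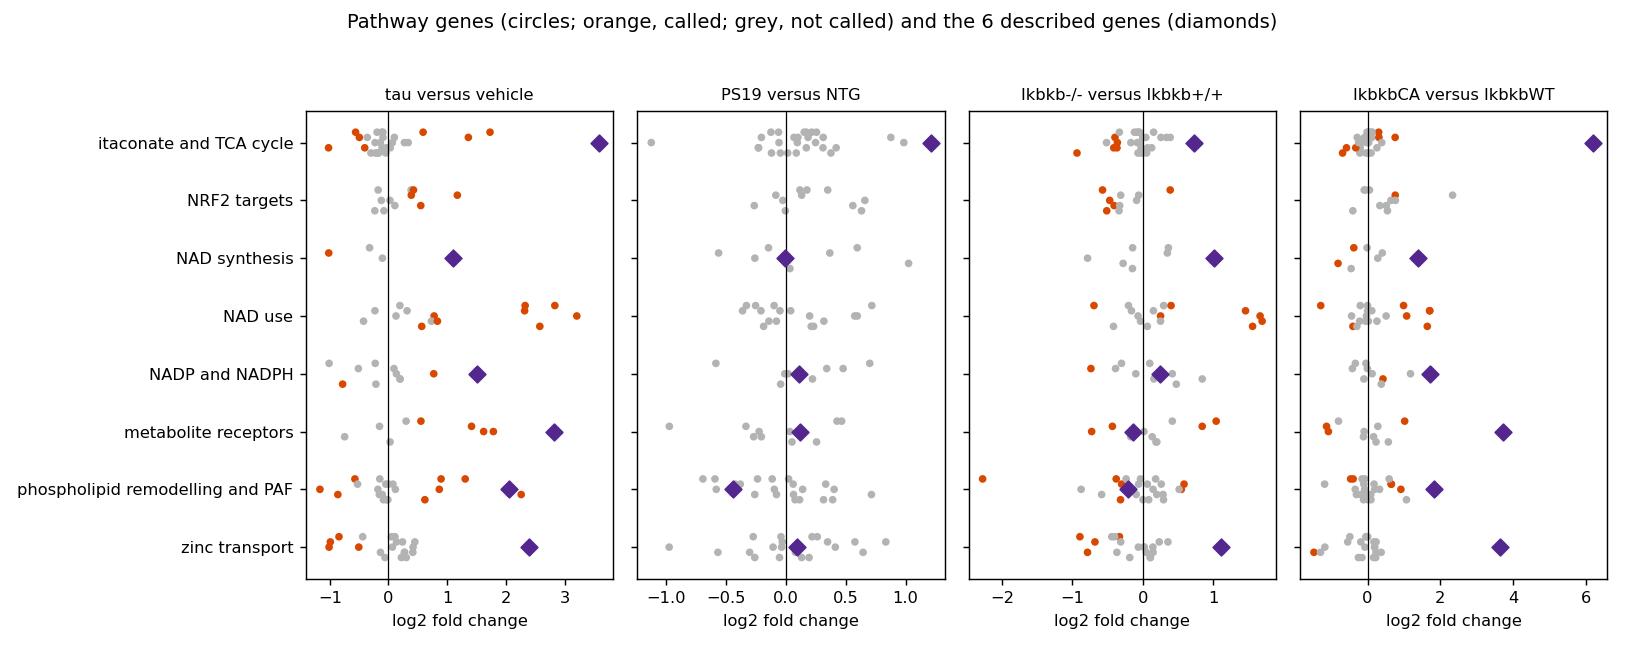
Log2 fold changes of the tested genes of 8 pathway lists (circles, orange where called and grey where not) and of the 6 genes (diamonds) in each comparison, each panel on its own axis. The diamonds lie to the right of nearly all genes of their lists with tau fibrils and in IkbkbCA, where the IkbkbCA position was used to pick them.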

How the data were processed

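RNA of 34 microglia libraries was sequenced as QuantSeq 3′ mRNA-Seq (FWD), and the 24 cortex samples of the 58 in the series were not used here. Per the submitters' processing notes and the methods, the authors mapped reads with Lexogen QuantSeq 2.2.3 to GRCm38 with GENCODE annotation. The deposited counts are whole, unnormalized reads on 47643 Ensembl genes. The 5 closing lines were left out, among them those of reads outside genes, of ambiguous reads and of multi-mapped reads. Reads outside genes were 12.4% to 38.3% of uniquely mapped reads. Symbols came from GENCODE M21 (47224 IDs matched). Each comparison was fitted in R 4.3.3 with edgeR 4.0.16 on its own libraries (TMM, filterByExpr with a minimum count of 10 and total of 15, quasi-likelihood test, Benjamini-Hochberg FDR under 0.05). Differences between effects came from a single fit of all 34 libraries. Alternatives used DESeq2 1.42.0, limma 3.58.1 (voom), RLE and total-count scaling, no filter, age, the 34-library fit and leaving out each library. Added with the data in view were a Ddx3y covariate, library sets, leaving out 2 libraries rich in granulocyte markers, and levels relative to microglia markers. The genes, pathway lists and tests were chosen with earlier results of these data known. Named were the 6 genes, Ikbkb and Cx3cr1, up to 2 called genes a direction, list and comparison with a mean count of at least 10, and the 3 genes most alike in pattern, of which 1 is not reported here. Procedures were tested on simulated data. Of 56 pairs of libraries within groups, 0 were identical.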

Additional observations from a re-analysis of the deposited data

Results flagged for a closer look

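In groups of 4 or 5 libraries, the gap of the highest or lowest library was compared with the range of its group by Dixon's criterion, which chance exceeds in about 1 in 20 groups, and 3 of 48 sets of gene and group exceeded it. IkbkbCA replicate 3 had 222.5 CPM of Acod1, where the other 4 libraries had 146 to 160.4 CPM, and 317 CPM of Gpr84, where the others had 194.3 to 199 CPM. IkbkbWT replicate 3 had 5.10 CPM of Slc39a4, where the others had 2.95 to 3.51 CPM. These are the same 2 libraries that had the most oligodendrocyte marker reads of their groups (1955 and 5210 CPM), and the part of those cells in these values was not tested.

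The change with tau fibrils exceeded that of the PS19 genotype, on the log2 scale and by edgeR's test of the difference, by 2.48 for Acod1, 2.67 for Gpr84, 1.10 for Nampt, 1.38 for Nadk, 2.48 for Lpcat2 and 2.28 for Slc39a4. Relative to the microglia markers the order turned for Nampt (0.957 of the control mean with tau fibrils and 1.11 in PS19) and was close for Nadk (1.24 and 1.16), and this was not tested. The change with tau fibrils exceeded that in Ikbkb-/- microglia by 2.89 for Acod1, 3.01 for Gpr84, 1.28 for Nadk and 2.31 for Lpcat2. For Nampt, the PS19 change minus the Ikbkb-/- change was -0.98.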

How the results depend on the processing

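All 6 genes stayed called higher with tau fibrils under 14 alternatives, none was called in PS19 under 15 (DESeq2 gave no adjusted value for Acod1), and Nampt stayed called in Ikbkb-/- microglia under 16. The counts of called genes depended on the fit. For Ikbkb-/- they were 515 with all 34 libraries in the fit and 782 with the Ddx3y covariate, against 1641, and for IkbkbCA 2846 with library sets, against 1692. For PS19 they were 0 with age as a covariate (552 genes at an unadjusted p under 0.05), 4 with limma-voom, 103 with DESeq2, 166 without a filter and 375 with all 34 libraries, against 8. Leaving out each library gave 4 to 54 for PS19, 54 being without PS19 replicate 2, and 361 to 740 for the PS19 minus deletion effect, 740 being without the same library, against 478. It gave 2517 to 3038 for tau, 1205 to 1583 for Ikbkb-/- and 1253 to 1693 for IkbkbCA. Total-count scaling moved the median over all genes, on the log2 scale, to -0.16 for tau, with 1057 genes higher and 2254 lower against 1506 and 1602, and to -0.11 for IkbkbCA, with 753 and 1252 against 855 and 837. It shifted the median of the tau minus PS19 difference to -0.21 (716 higher and 1022 lower, against 950 and 591) and that of the tau minus deletion difference to -0.11 (577 and 399, against 794 and 268). The 6 genes kept their calls under it in each comparison tested. No paired analysis was possible because the labels pair no libraries across groups. The library sets of IkbkbWT and IkbkbCA were read from the data. Low counts of Acod1 and Slc39a4 in the controls limit their folds.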
